A study of Caenorhabditis elegans with 8 samples.

Results

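The 10 genes described here were chosen as near zero in some strains of Caenorhabditis elegans and high in others. However, haf-6 stayed above 6 CPM (counts per 1e6 counts) in every library, and T26E4.10 did not exceed 1.17 CPM. The lowest libraries of gpr-2, asp-12 and F42G10.1 were at 1.77, 2.06 and 3.80 CPM, so these genes were low and not off. They are F56A4.3, W01A11.1, D1014.6, T28D9.4, nhr-269, T26E4.10, asp-12, gpr-2, F42G10.1 and haf-6, 10 of the 46778 genes counted in the series, and they were picked from the unstranded read counts of all 16 libraries. Because these counts chose them, their own levels are given as a description with no test. The question asked of them was which strains shared the high or the low state, and whether the state followed the mbl-1, mec-3 or mec-7 genotype.

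RNA was taken from whole worms of 8 strains at the fourth larval stage (L4), with 2 biological replicates and so 2 libraries per strain. The worms were hatched from bleached eggs overnight in M9 buffer and fed OP50 bacteria until L4. Every strain carried a red fluorescent reporter driven by the mec-17 promoter, which marks the touch receptor neurons (TRNs). There were the double mutants mec-7(u278) mbl-1(-) and mbl-1(-); mec-3(unk206), the strains mec-7(u278), mbl-1(-) and mec-3(unk206) that carry 1 of these alleles each, and WT, all with the reporter insertion uIs115 on chromosome IV, while mec-3(syb8382) and mec-3(u184) had the insertion uIs134 on chromosome V, so the effect of those 2 alleles and of the insertion cannot be told apart. The mbl-1(-) allele was the deletion tm1563, u278 is a neomorphic allele of mec-7, u184 is the null allele of mec-3, syb8382 removes an exon of mec-3 so that the long isoform mec-3a cannot be made, and unk206 lacks the introns through which the short isoforms arise. WT had no mutation beside the reporter.

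Muscleblind proteins such as MBL-1 bind RNA and direct alternative splicing. MEC-3 is a LIM homeodomain transcription factor that selects the TRN fate, and MEC-7 is a β-tubulin of the TRNs. The TRNs are a handful of cells, so RNA from a whole worm comes mostly from the intestine, muscle, epidermis and germline, and in such bulk RNA fewer cells of a type and less RNA per cell cannot be told apart.

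Counts over all genes summed to 22296336 to 23180583 per library, so depth differed little. Of the targeted genes, mec-3 had 3 counts in each mec-3(u184) library and 12 and 11 counts in the mec-3(syb8382) libraries, against 15 to 74 counts in the other strains. The total over mbl-1 lay between 24.0 and 70.3 CPM (a gene's count over the TMM-scaled library total, in units of 1e6) in all strains and did not mark the deletion, and mec-7 was at 4.34 to 98.5 CPM in the mutants, against 214 and 150 CPM in WT. Libraries of the 4 strains with a mec-3 allele kept the strand of the RNA (97.7% to 98.4% of stranded counts on the second strand), while the other 4 strains did not (50.8% to 51.3%), so a mec-3 allele and the library kind cannot be told apart. The cultures also differed in germline content: 4 germline markers (pgl-1, glh-1, gld-1, him-3) summed to 77.1 CPM in mbl-1(-) replicate 2 and to 1860 CPM in mbl-1(-); mec-3(unk206) replicate 2, and 5 sperm markers summed to 1.54 CPM in mbl-1(-) replicate 2 and to 784 CPM in mec-7(u278) mbl-1(-) replicate 1.

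**Figure D1:**
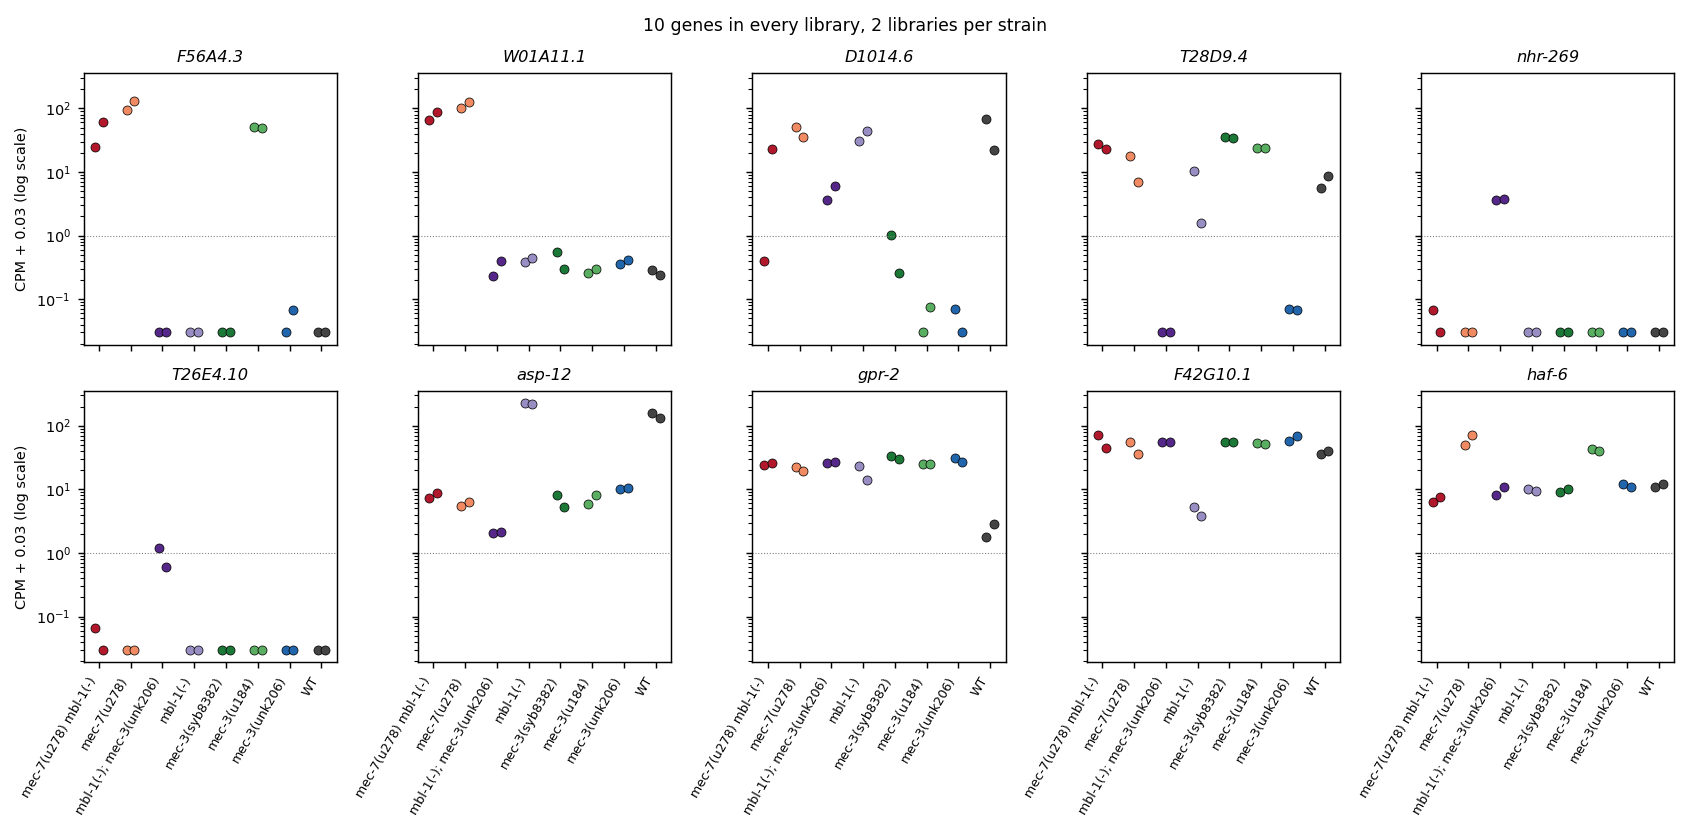
CPM of each of the 10 genes in all 16 libraries on a log axis, with 0.03 CPM added so that libraries at 0 can be drawn; points are libraries, 2 per strain, and the dotted line is 1 CPM. The high strains differ from gene to gene: W01A11.1 is high in the 2 strains with mec-7(u278), T28D9.4 is near 0 in the 2 strains with mec-3(unk206), and gpr-2 is low only in WT.

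To give the states a common form, the 16 libraries of each gene were split at the largest gap in log2(CPM + 0.1). Every gap is given on this scale. A gene was called switched where both libraries of every strain fell on the same side, the lowest library of the high side had at least 1 CPM and the gap was at least 4-fold. Of the 14409 genes that reached 1 CPM in both libraries of some strain, 21 were switched (0.146%), and 7 of the 10 genes were among them. The 21 genes fell into 12 different splits of the strains. For 9 of them a single strain stood apart (0.0625% of the genes), 7 followed an allele or a group of alleles, and 5 followed neither. None of the 21 separated the 3 strains with mbl-1(tm1563) from the 5 without it. For mec-7(u278) there was 1 such gene, W01A11.1, and for mec-3(unk206) there was 1, T28D9.4 (0.00694% of the genes each). A further 4 genes (0.0278%), none of the 10, were low in all strains with a mec-3 allele, where the allele and the library kind cannot be told apart. Chromosome V held 6 of the 10 genes and 8 of the 21 switched genes (38.1%), against 19.6% of all genes that reached 1 CPM.

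W01A11.1 (WBGene00020909, chromosome V from 6499224 to 6502428, plus strand) followed mec-7(u278). It had 1770 and 2123 counts (65.7 and 88.8 CPM) in the mec-7(u278) mbl-1(-) libraries and 2512 and 2595 counts (101 and 128 CPM) in the mec-7(u278) libraries. Elsewhere it had between 4 and 12 counts per library, with 7 and 8 counts in mbl-1(-) and 5 and 4 counts in WT. All 4 libraries with mec-7(u278) were high and all 12 without it were low, and the gap of 104.6-fold between 65.7 CPM and 0.529 CPM was the widest among those of the 10 genes that had counts in every library. The strain mean was 489-fold higher in mec-7(u278) than in WT and 203-fold higher in mec-7(u278) mbl-1(-) than in mbl-1(-). Within the high state, the mec-7(u278) mbl-1(-) libraries averaged 77.3 ± 16.3 CPM, against 114 ± 18.6 CPM in mec-7(u278) (SD, n = 2 each).

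The exons of W01A11.1 and of moc-2, which lies on the opposite strand, share 61 bases. In the unstranded counts moc-2 had 126 and 154 counts in mec-7(u278) mbl-1(-) and 168 and 224 counts in mec-7(u278), against 148 to 326 counts in the other 12 libraries, so moc-2 did not have the 2 states of W01A11.1. The gene dgtr-1, of the diacylglycerol acyltransferase family, ends 740 bases before W01A11.1 on the same strand. It had 15.1, 13.1, 8.51 and 4.33 CPM in the 4 libraries with mec-7(u278), against 0.617 to 37.2 CPM in the other 12, and the libraries overlapped. Over the 8 strain means, the genes most like W01A11.1 were linc-4 (r = 0.972) and hsp-16.48, a small heat shock protein gene (r = 0.947). The level of linc-4 was 5.41 to 8.39 CPM in the 4 libraries with mec-7(u278), against 0.464 to 1.54 CPM in the others, a far smaller difference than that of W01A11.1. hsp-16.48 was low throughout, with 0.334 and 1.84 CPM in mec-7(u278) mbl-1(-) and 1.65 and 1.67 CPM in mec-7(u278). It had 0 to 0.364 CPM in the other libraries, so the libraries overlapped.

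T28D9.4 (WBGene00020896, chromosome II from 6476955 to 6478073, plus strand) was the gene that followed mec-3(unk206). It had 0 and 0 counts in mbl-1(-); mec-3(unk206) and 1 and 1 counts in mec-3(unk206). It had 728 and 543 counts in mec-7(u278) mbl-1(-), 443 and 139 counts with mec-7(u278) alone, 208 and 30 in mbl-1(-), 811 and 771 in mec-3(syb8382), 523 and 549 in mec-3(u184), and 108 and 163 in WT. Thus the low state was shared by both strains with mec-3(unk206) and by neither strain with another mec-3 allele. All 4 of these strains have the same kind of library. Set against a floor of 3 counts per library, the mean was at least 48.9-fold lower in mbl-1(-); mec-3(unk206) than in mbl-1(-), a bound that was 12.7-fold without mbl-1(-) replicate 1 and 85-fold without replicate 2. In mec-3(syb8382) and mec-3(u184), T28D9.4 averaged 35.2 ± 0.806 and 23.9 ± 0.447 CPM (SD, n = 2 each).

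Within the 6 strains on the high side, the level of T28D9.4 went with the germline markers of the library. Over these 12 libraries log2(CPM + 0.5) of T28D9.4 and of the summed germline markers had a Pearson r of 0.992 and a Spearman rho of 0.986, and r was 0.985 without the 2 libraries farthest from the median marker sum; the 2 libraries of a strain are not independent of each other, so this is a description. With the 5 sperm markers r was 0.956, and with 4 neuronal markers (unc-119, rab-3, snb-1, ric-4) it was -0.91. The marker sums are not independent of each other, and the reason for the opposite signs was not tested. The lowest of the 12 was mbl-1(-) replicate 2, with 1.54 CPM of T28D9.4 and 77.1 CPM of germline markers. The 4 libraries with mec-3(unk206) had 1723, 1860, 1476 and 1350 CPM of germline markers, above the 1333 CPM of mec-7(u278) mbl-1(-) replicate 1, where T28D9.4 was at 27 CPM. The part of the germline content in the low state of T28D9.4 was not tested.

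**Figure D2:**
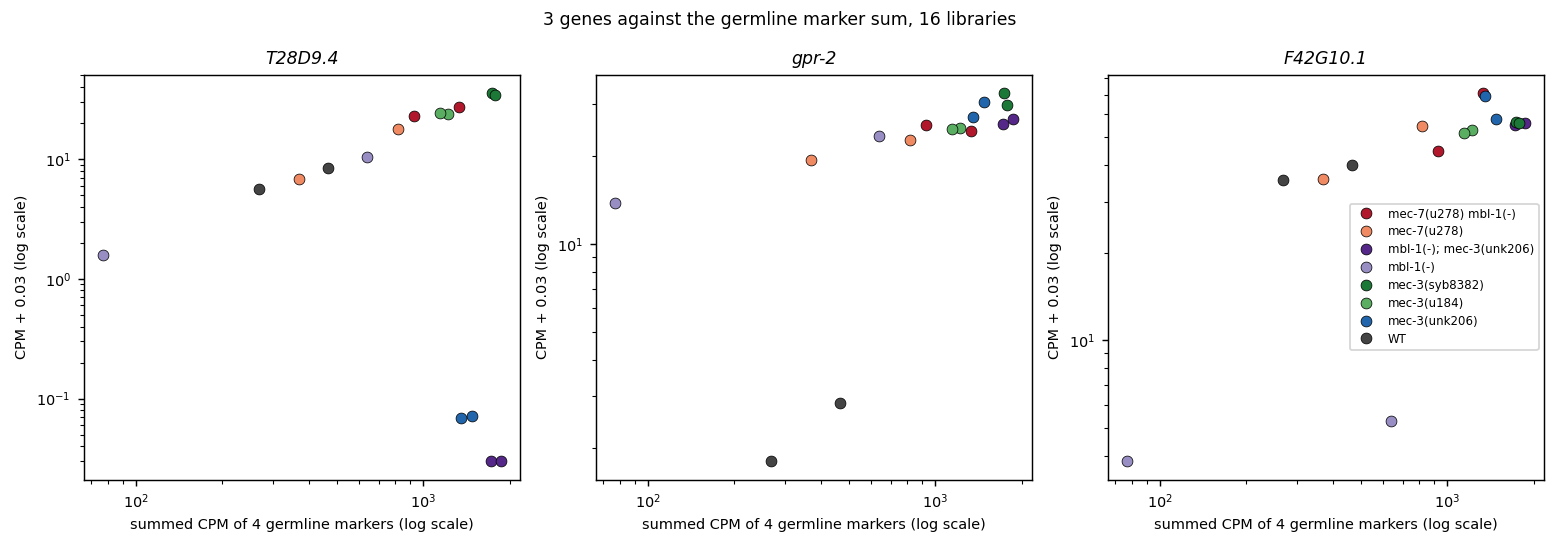
CPM + 0.03 of T28D9.4, gpr-2 and F42G10.1 against the summed CPM of 4 germline markers, both on log axes, with 1 point per library coloured by strain. The low libraries are the 4 with mec-3(unk206) for T28D9.4, both WT libraries for gpr-2 and both mbl-1(-) libraries for F42G10.1; mbl-1(-) replicate 2, at a marker sum of 77.1 CPM, has no other library near it.

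T28D9.4 lies inside del-10, a gene of the DEG/ENaC channel family on the opposite strand, and shares no exon with it. The level of del-10 was 4.58 to 10.6 CPM in the 12 libraries with T28D9.4 and 4.56 to 7.48 CPM in the 4 without, so the host gene did not have the 2 states. Averaged over mbl-1(+) and mbl-1(-), del-10 was lower with mec-3(unk206) by a log2 fold change of -0.64 (SE 0.23, adjusted p = 0.0267 in edgeR's quasi-likelihood test), while the adjusted p was 0.0541 when only the strains of the contrast were fitted. In this contrast 71.9% of the 16074 genes tested passed the threshold of 0.05, and 67.9% did with only the strains of the contrast, so a call in it is the common case; WT and mbl-1(-) also differ from the mec-3(unk206) strains in library kind. No gene matched T28D9.4 well over the 8 strains, the closest being F55G11.2 (r = 0.745) and F18E3.12 (r = 0.714).

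F56A4.3 (WBGene00018911, chromosome V from 2453414 to 2456147, plus strand) was on in 3 strains that share no allele of mbl-1, mec-3 or mec-7 among all of them. It had 672 and 1474 counts in mec-7(u278) mbl-1(-), 2327 and 2631 counts in mec-7(u278), and 1144 and 1113 counts in mec-3(u184). It had 1 count in mec-3(unk206) replicate 2 and 0 counts in the other 9 libraries. Both strains with mec-7(u278) were thus on, but so was mec-3(u184), which has the wild-type mec-7 gene. The strain means were 112 CPM in mec-7(u278), 50.4 CPM in mec-3(u184) and 43.3 CPM in mec-7(u278) mbl-1(-). Against a floor of 3 counts per library these were at least 715-fold higher than in WT for mec-7(u278), at least 378-fold higher than in mec-3(syb8382) for mec-3(u184), and at least 285-fold higher than in mbl-1(-) for mec-7(u278) mbl-1(-), the last being 164-fold without mec-7(u278) mbl-1(-) replicate 2. The mec-3(syb8382) strain, with the same uIs134 insertion and library kind as mec-3(u184), had 0 and 0 counts.

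The same 3 strains were on for 1 other switched gene, the pseudogene WBGene00017496 on chromosome V from 2345676 to 2348123. It had 63 and 204 counts where mbl-1(-) was combined with mec-7(u278), 295 and 310 with mec-7(u278) alone, 50 and 38 in mec-3(u184), and 0 counts in each of the other 10 libraries. Its strain means had a Pearson r of 0.962 with those of F56A4.3. The 2 genes did not keep a fixed ratio, since F56A4.3 in mec-3(u184) was close to its level in mec-7(u278) mbl-1(-) while the pseudogene had 2.26 and 1.68 CPM in mec-3(u184), against 2.34 and 8.53 CPM in mec-7(u278) mbl-1(-). Whether the pseudogene and F56A4.3 share sequence was not tested.

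Beside the unstranded counts, each library has counts by strand, and those at F56A4.3 differed from the unstranded ones. The next gene, irld-35, was singled out after its values were seen. It lies on the minus strand from 2456176 to 2458286, 28 bases after F56A4.3. In mec-3(u184), whose libraries keep the strand, F56A4.3 had 1720 and 1765 counts on its own strand, 576 and 652 more than its unstranded counts. STAR gives no unstranded count to a read pair that overlaps 2 genes. In these libraries irld-35 had 0 and 0 unstranded counts but 581 and 653 counts in the column for the strand opposite to it, and 0 and 0 such counts in mec-3(syb8382). In the second strand column the on and off strains of F56A4.3 were those of the unstranded counts, while its first strand column held 3 and 1 counts in mec-3(u184).

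**Figure D3:**
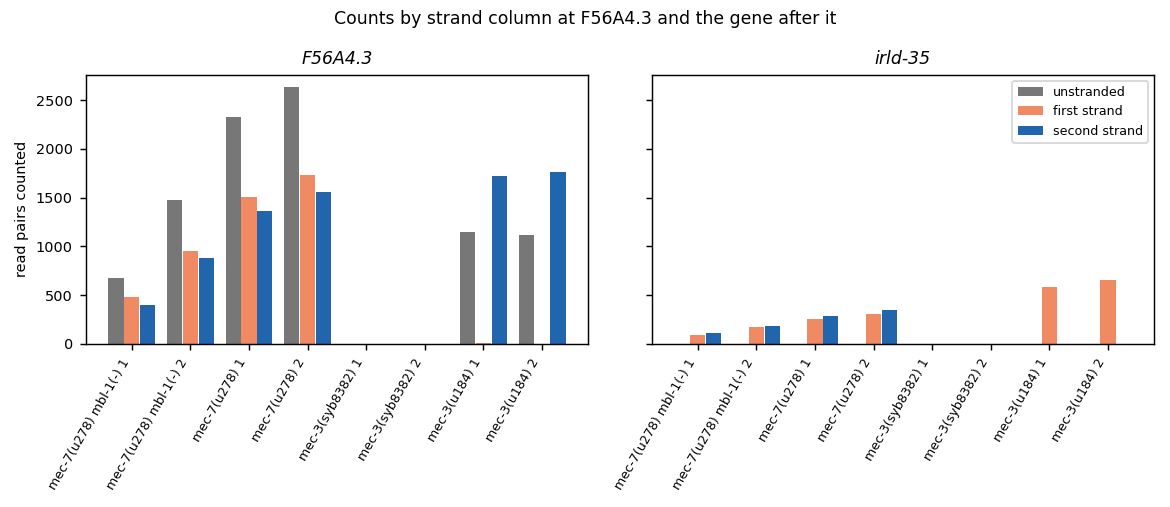
Counts at F56A4.3 and at irld-35, the gene after it on the other strand, in the unstranded, first strand and second strand columns, for both libraries of mec-7(u278) mbl-1(-), mec-7(u278), mec-3(syb8382) and mec-3(u184). In mec-3(u184) the second strand column of F56A4.3 is higher than the unstranded one by 576 and 652 counts, and irld-35 has 581 and 653 counts in the first strand column only.

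haf-6 (WBGene00001816, chromosome I from 1162880 to 1175809, minus strand) codes for a half-molecule ABC transporter. It was high in mec-7(u278), with 1228 and 1457 counts (49.5 and 71.6 CPM), and in mec-3(u184), with 951 and 902 counts (42.9 and 39.8 CPM). The other 12 libraries had 168 to 296 counts, among them 168 and 181 in mec-7(u278) mbl-1(-) and 207 and 231 in WT. Unlike F56A4.3, haf-6 was low in mec-7(u278) mbl-1(-): the strain mean was 6.90 ± 0.942 CPM there, against 60.6 ± 15.6 CPM in mec-7(u278) (SD, n = 2 each). The mean in mec-7(u278) was 5.31-fold that in WT, and that in mec-7(u278) mbl-1(-) was 0.708-fold that in mbl-1(-). The gap of 3.26-fold between 39.8 and 12.2 CPM was under the 4-fold limit, so haf-6 did not count as switched, and in its low state it was at 6.24 to 12.2 CPM and thus not off.

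The gene Y48G8AL.7 on the opposite strand shares 44 exon bases with haf-6, and it had 74 to 107 counts in the 4 high libraries, against 42 to 231 in the 12 low ones. Most like haf-6 over the strains were cnc-4, which codes for a caenacin antimicrobial peptide (r = 0.903), and clec-258, a C-type lectin gene (r = 0.891). Both were higher in the 4 libraries of mec-7(u278) and mec-3(u184) with no overlap, cnc-4 at 8.80 to 19.2 CPM, against 0.52 to 7.32 CPM in the other 12, and clec-258 at 18.7 to 36.8 CPM, against 2.12 to 15.6 CPM.

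asp-12 (WBGene00017678, chromosome V from 8269210 to 8272056, plus strand), an aspartyl protease gene, was high in mbl-1(-) and WT and low in every strain that carried a mec-7 or mec-3 allele. It had 4580 and 4254 counts (228 and 219 CPM) in mbl-1(-) and 3063 and 2510 counts (160 and 130 CPM) in WT. It had 193 and 206 counts in mec-7(u278) mbl-1(-), 133 and 129 counts with mec-7(u278) alone, 51 and 51 in mbl-1(-); mec-3(unk206), 187 and 115 in mec-3(syb8382), 131 and 186 in mec-3(u184) and 249 and 266 in mec-3(unk206). The lowest high library (130 CPM) and the highest low library (10.3 CPM) were 12.6-fold apart. The strain mean was 5.85 CPM in mec-7(u278) and 10.3 CPM in mec-3(unk206), against 145 CPM in WT. It was 7.89 CPM in mec-7(u278) mbl-1(-) and 2.07 CPM in mbl-1(-); mec-3(unk206), against 223 CPM in mbl-1(-). Thus the low state came with mec-7(u278) whether or not mbl-1 was intact, and likewise with mec-3(unk206).

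The effect of mbl-1(-) on asp-12 was not the same in all backgrounds: the mean in mbl-1(-) was 1.54-fold that in WT, and the mean in mec-7(u278) mbl-1(-) was 1.35-fold that in mec-7(u278), but the mean in mbl-1(-); mec-3(unk206) was 0.202-fold that in mec-3(unk206). The sum of 4 intestinal markers (elt-2, ges-1, vha-6, ifb-2) also varied, from 659 CPM in mec-7(u278) mbl-1(-) replicate 1 to 3286 CPM in WT replicate 2. It was 2389 to 3286 CPM in the 4 high libraries of asp-12. In the low libraries it was 659 to 1667 CPM, except for mec-7(u278) replicate 2. In that library it was 2467 CPM, and asp-12 was at 6.34 CPM. The part of the intestinal content in the low state of asp-12 was not tested.

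Further aspartyl protease genes flank asp-12, asp-6 at a distance of 273 bases and asp-5 at 329 bases. The highest and lowest levels of asp-6 were 7997 and 5664 CPM in the 4 libraries of mbl-1(-) and WT, and it had 1314 to 4087 CPM in the other 12. asp-5 had 2706 to 3552 CPM in the 4 libraries and 553 to 2131 CPM in the rest. Both were therefore split in the same way as asp-12 with no overlap, but the mean difference was 1.63 for asp-6 and 1.47 for asp-5 on the log2 scale, against 4.79 for asp-12. In the fit of all libraries asp-6 was lower with mec-7(u278), averaged over mbl-1(+) and mbl-1(-) (log2 fold change -1.62, SE 0.24, adjusted p = 0.00551, edgeR), and with mec-3(unk206) (-1.69, SE 0.24, adjusted p = 0.000261). With only the strains of the contrast the adjusted p was 0.136 for mec-7(u278) and 0.00054 for mec-3(unk206). In the contrast for mec-7(u278) 43.2% of the genes tested passed in the fit of all libraries, and 0.0128% with only the strains of the contrast.

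**Figure D4:**
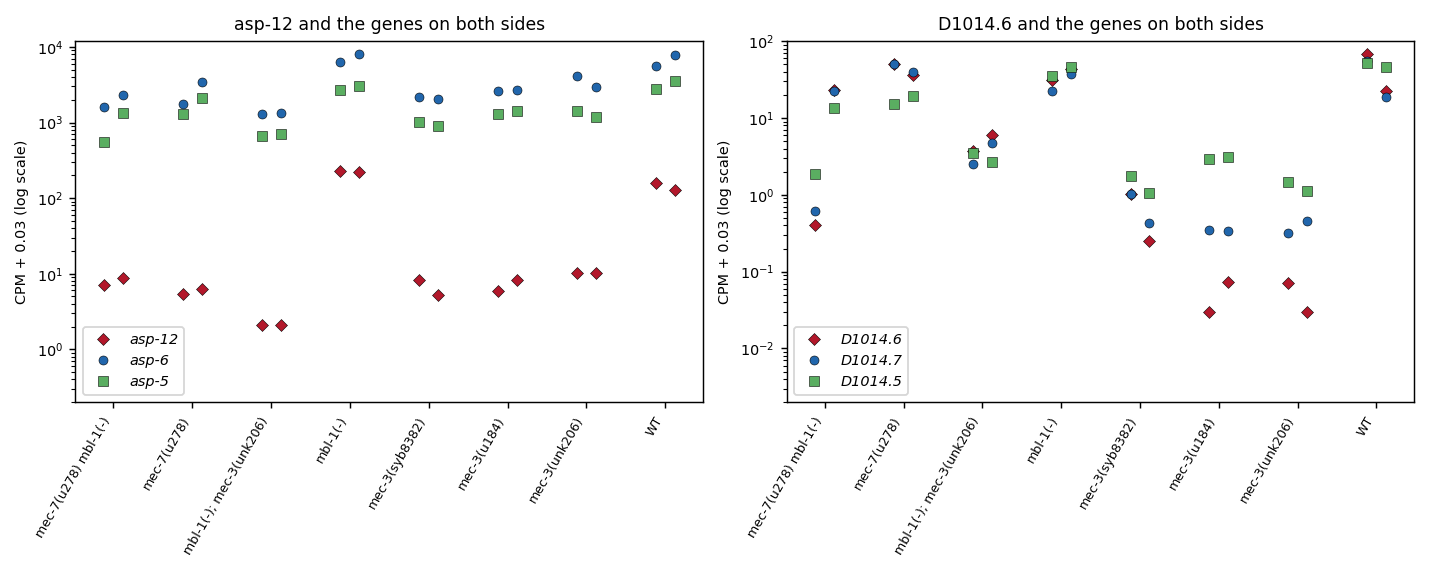
CPM + 0.03 (log axis) of asp-12 with asp-6 and asp-5 (left) and of D1014.6 with D1014.7 and D1014.5 (right), 2 libraries per strain. asp-12 is 12.6-fold or more apart between mbl-1(-) or WT and the other strains while asp-6 and asp-5 differ less, and the D1014 genes are low together, also in 1 of the 2 mec-7(u278) mbl-1(-) libraries.

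Away from its flanks, asp-12 shared its split with 2 switched genes, clec-70 on chromosome IV, a C-type lectin gene, and oac-1 on chromosome V, an O-acyltransferase homolog. clec-70 had 181 and 231 counts in mbl-1(-) and 125 and 146 in WT, against 2 to 27 counts in the other strains. oac-1 had 232 and 283 counts in mbl-1(-) and 267 and 229 in WT, against 5 to 55 counts elsewhere. Most like asp-12 by correlation were ftn-1, which codes for ferritin (r = 0.985), and crtc-1, a CREB coactivator (r = 0.981). ftn-1 had 9.80 and 14.7 CPM in mbl-1(-) and 8.08 and 14.4 CPM in WT, against 0.447 to 3.39 CPM in the other strains.

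nhr-269 (WBGene00011150, chromosome V from 15368470 to 15369807, minus strand) belongs to the large nuclear hormone receptor family of nematode transcription factors. It had 90 and 91 counts in mbl-1(-); mec-3(unk206), 1 count in mec-7(u278) mbl-1(-) replicate 1 and 0 counts in the other 13 libraries. The strain mean of 3.67 CPM was at least 30.7-fold higher than in mec-3(unk206) and at least 24.2-fold higher than in mbl-1(-), taking 3 counts per library as the floor. Only the double mutant was on, and neither strain that carries 1 of its alleles alone was, nor was the other double mutant with mbl-1(-).

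T26E4.10 (WBGene00012052, chromosome V from 15797879 to 15798208, minus strand) had the same pattern at a lower level. It had 29 and 14 counts (1.17 and 0.569 CPM) in mbl-1(-); mec-3(unk206), 1 count in mec-7(u278) mbl-1(-) replicate 1 and 0 counts in the other 13 libraries. The second library was below 1 CPM, so T26E4.10 did not count as switched. The mean of 0.871 CPM was at least 7.28-fold higher than in mec-3(unk206), and at least 4.76-fold without replicate 1 of mbl-1(-); mec-3(unk206). The neighbouring gene T26E4.9, 1004 bases away on the same strand, had 35 and 16 counts in mbl-1(-); mec-3(unk206), against 0 to 3 counts in the other 14 libraries. It passed the test for mec-3(unk206) averaged over mbl-1(+) and mbl-1(-) (log2 fold change 4.88, SE 1.83, adjusted p = 0.0428, edgeR). The adjusted p was 0.0696 when only the strains of the contrast were fitted. The strain mec-3(unk206) itself had 0 and 1 counts of T26E4.9, so this average rests on the double mutant and does not show an effect of mec-3(unk206) alone.

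The 4 flanking genes of nhr-269 did not have this pattern. ech-1.1 was at 29.2 and 37.5 CPM in mbl-1(-); mec-3(unk206), against 12.3 to 121 CPM elsewhere, and dhs-23, a dehydrogenase gene, at 3.48 and 5.29 CPM, against 1.34 to 5.26 CPM. The gene most like nhr-269 was ugt-35, of the UDP-glucuronosyltransferase family (r = 0.938). It had 4.73 and 7.16 CPM in mbl-1(-); mec-3(unk206), against 0 to 0.37 CPM in 13 other libraries and 1.38 CPM in mec-7(u278) replicate 2.

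gpr-2 (WBGene00001689, chromosome III from 9391330 to 9393164, minus strand) codes for a GoLoco protein that acts with heterotrimeric G proteins in positioning the spindle of dividing cells. It was low only in WT, with 34 and 54 counts (1.77 and 2.81 CPM). The 7 mutant strains had 268 to 746 counts (13.8 to 32.8 CPM), with the fewest in mbl-1(-) replicate 2. The strain mean was 8.09-fold higher in mbl-1(-), 9.16-fold higher in mec-7(u278) and 12.6-fold higher in mec-3(unk206) than in WT. Between mutants that differ by 1 allele the means were closer, as in mec-7(u278) mbl-1(-) with 24.9 ± 0.870 CPM and mec-7(u278) with 21.0 ± 2.33 CPM (SD, n = 2 each). The state therefore followed no allele but set WT apart from all strains with a mutation.

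gpr-2 has a near-identical paralog, gpr-1. Reads that map equally well to both are left out of the counts, so the level of either gene is less certain than that of a unique gene. gpr-1 was at 5.65 to 15.6 CPM in the mutants and at 9.64 and 8.06 CPM in WT, and so it did not show the low state of gpr-2. Germline markers summed to 369 CPM in mec-7(u278) replicate 2, where gpr-2 was at 19.3 CPM, and to 77.1 CPM in mbl-1(-) replicate 2, where it was at 13.8 CPM, against 268 and 467 CPM in WT. Over the 14 mutant libraries gpr-2 went with the germline markers (r = 0.936, and 0.705 without the 2 libraries farthest from the median). It went against the neuronal markers (r = -0.803, and -0.457 without the 2 farthest libraries) and the intestinal markers (r = -0.602 and -0.754). The marker sums are not independent of each other, nor are the 2 libraries of a strain, so these values are a description. The genes most like gpr-2 were cpg-18 (r = 0.918) and ZK669.3 (r = 0.898). cpg-18 had 0.668 to 7.74 CPM in the mutants, against 0.365 and 0.156 CPM in WT.

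F42G10.1 (WBGene00009645, chromosome X from 10018046 to 10022166, minus strand) was low only in mbl-1(-), with 105 and 74 counts (5.22 and 3.80 CPM). The other 7 strains had 682 to 1911 counts, with 682 and 770 (35.5 and 40.0 CPM) in WT. The mean in mbl-1(-) was 0.119-fold that in WT. The 2 other strains with the same mbl-1 deletion were high: mec-7(u278) mbl-1(-) averaged 57.9 ± 18.5 CPM, against 45.4 ± 13.3 CPM in mec-7(u278), and mbl-1(-); mec-3(unk206) averaged 55.4 ± 0.734 CPM, against 63.5 ± 8 CPM in mec-3(unk206) (SD, n = 2 each). The low state was thus not shared by all strains with the mbl-1 deletion, and each high strain with it carries a further allele.

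The genes most like F42G10.1 over the strain means were D1086.10 (r = 0.983) and ttr-14, a transthyretin-related gene (r = 0.979), but these were low in 1 of the mbl-1(-) libraries only. ttr-14 had 77.9 and 0.668 CPM in mbl-1(-), against 45.5 CPM in mec-7(u278) replicate 2 and 44.7 CPM in WT replicate 1, while F42G10.1 was low in both mbl-1(-) libraries. Replicate 2 of mbl-1(-) is the library with the fewest germline and sperm counts. Replicate 1 had 640 CPM of germline markers, more than the 268 and 467 CPM in WT, and F42G10.1 was at 5.22 CPM there. Over the 14 libraries of the other strains F42G10.1 went with the germline markers (r = 0.845, and 0.641 without the 2 libraries farthest from the median) and with the sperm markers (r = 0.85). It went against the neuronal markers (r = -0.861, and -0.783 without the 2 farthest libraries) and the intestinal markers (r = -0.806 and -0.726). The marker sums are not independent of each other, nor are the 2 libraries of a strain, so these values are a description. The part of the germline content in the low state was not tested.

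D1014.6 (WBGene00017019, chromosome V from 8121168 to 8123470, plus strand) was split within a strain. It had 10 and 545 counts (0.371 and 22.8 CPM) in the 2 mec-7(u278) mbl-1(-) libraries. It had 1255 and 728 counts in mec-7(u278), 619 and 842 in mbl-1(-), and 1320 and 433 in WT. It had 90 and 149 counts in mbl-1(-); mec-3(unk206), 23 and 5 in mec-3(syb8382), 0 and 1 in mec-3(u184), and 1 and 0 in mec-3(unk206). All 4 strains with a mec-3 allele were low, and among them mbl-1(-); mec-3(unk206) was higher than the rest, with a mean of 4.85 CPM, against 0.0205 CPM in mec-3(unk206). The mean in mec-7(u278) mbl-1(-) was 11.6 ± 15.9 CPM, against 43.2 ± 10.5 CPM in mec-7(u278) (SD, n = 2 each), and the SD was larger than the mean itself.

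D1014.6 was not alone in this, since the genes on both sides in the same orientation moved with it. D1014.7, which ends 751 bases before it, had 16 and 528 counts in mec-7(u278) mbl-1(-), 1256 and 808 counts with mec-7(u278) alone, 61 and 116 in mbl-1(-); mec-3(unk206), and 1047 and 358 in WT. D1014.5, which begins 214 bases after it, had 50 and 319 counts in mec-7(u278) mbl-1(-), 383 and 390 counts with mec-7(u278) alone, 86 and 66 in mbl-1(-); mec-3(unk206), and 1010 and 896 in WT. Both were low in the same mec-7(u278) mbl-1(-) library as D1014.6. Averaged over mbl-1(+) and mbl-1(-), the log2 fold change with mec-3(unk206) was -4.86 for D1014.7 (SE 0.91, adjusted p = 0.00102, edgeR) and -4.51 for D1014.5 (SE 0.52, adjusted p = 0.000127). The annotated ranges of D1014.5 and of spr-1, on the other strand, overlap at their ends, so part of the counts of either cannot be assigned with certainty where the strand is not kept.

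Over the strains D1014.6 was most like D1014.7 (r = 0.994) and BE0003N10.6 on chromosome III (r = 0.994), which had 3.49 and 97.5 CPM in mec-7(u278) mbl-1(-), against 161 and 166 CPM in mec-7(u278). The intestinal marker sum was 659 CPM in the low mec-7(u278) mbl-1(-) library and 1659 CPM in the high one. In mec-3(u184) it was 1584 and 1660 CPM, close to the high library, and D1014.6 had 0 and 1 counts there. The part of the culture's intestinal or germline content in the split of mec-7(u278) mbl-1(-) was not tested.

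Whether the switch of each gene extended to its surroundings was asked of the 4 nearest protein-coding genes that could be tested, 2 on each side, 40 in all. None of the 40 was switched, beside 0.146% of all genes that reached 1 CPM. Over the same high and low libraries as the gene beside them, 7 of the 40 had no overlap. The share of all genes with no overlap over these libraries was not counted, so the 7 do not show that flanking genes differ from genes at large. The mean log2 differences of all 40 ran from -1.65 to 4.66 with a median of 0.01. These 7 were D1014.7, D1014.5 and spr-1 beside D1014.6, asp-6 and asp-5 beside asp-12, T26E4.9 beside T26E4.10, and W01A11.7 beside W01A11.1. For spr-1, a CoREST homolog, and W01A11.7 the direction was opposite, with -1.52 and -1.65. Beside F56A4.3, where the nearest genes had too few counts to test, the closest tested gene was mct-2 at a distance of 26857 bases.

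**Figure D5:**
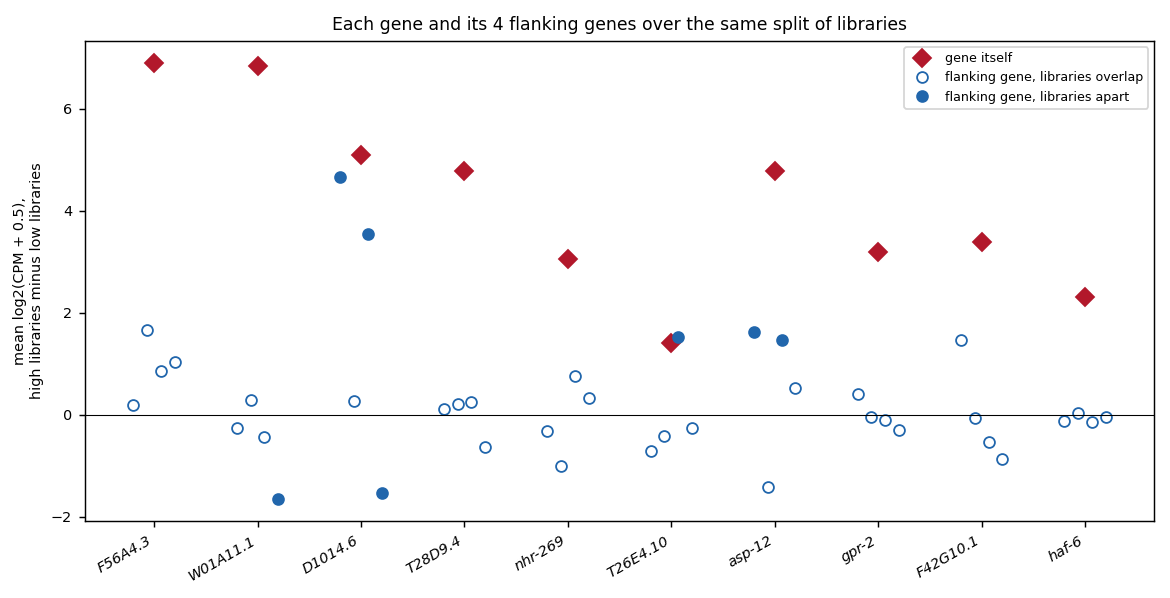
Mean log2(CPM + 0.5) in the high libraries minus the low libraries of each of the 10 genes (diamonds), and the same difference for its 4 flanking genes over the same libraries (circles; filled where the high and low libraries did not overlap). D1014.7 and D1014.5 at 4.66 and 3.55 come near D1014.6 at 5.10, while the flanks of F56A4.3, T28D9.4, gpr-2 and haf-6 lie between -0.63 and 1.66.

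In the genotype contrasts, fitted over all 16 libraries, 0 of the 40 flanking genes passed edgeR's test for mbl-1(-) averaged over its 3 backgrounds, where 0.386% of all genes did. In DESeq2 5 of 40 passed, beside 1681 of the 16074 genes tested. An unadjusted p below 0.05 in edgeR was reached by 7 of 40. The share of all genes at an unadjusted p below 0.05 was not counted for any contrast. With mec-7(u278), 15 of 40 passed (37.5%), 9 higher and 6 lower, beside 43.2% of all genes. With mec-3(unk206), 28 of 40 passed (70%), 11 higher and 17 lower, beside 71.9% of all genes. The flanking genes were thus called about as often as genes at large. For mec-3(u184) against mec-3(unk206) 0 of 40 passed in edgeR (0.106% of all genes), with 3 at an unadjusted p below 0.05 and 0 in DESeq2 (171 genes in all). For mec-3(syb8382) against mec-3(unk206) 0 of 40 passed in edgeR (0.0311% of all genes), with 6 at an unadjusted p below 0.05 and 0 in DESeq2 (261 genes in all). The calls depended on the libraries in the fit: when only the strains of the contrast were fitted, 0 of 40 passed with mec-7(u278) and 24 with mec-3(unk206), 9 for mec-3(u184) (27.3% of all genes) and 8 for mec-3(syb8382) (13.9%).

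Among the flanks of W01A11.1, dgtr-1 was higher with mec-7(u278) (log2 fold change 1.95, SE 0.48, adjusted p = 0.0147), and cpt-6 (-1.01, SE 0.16, adjusted p = 0.00628) and W01A11.7 (-1.04, SE 0.19, adjusted p = 0.00802) were lower. With only the strains of the contrast their adjusted p was 0.138, 0.136 and 0.136. Of the same genes, dgtr-1 was higher with mec-3(unk206) (log2 fold change 3.50, SE 0.50, adjusted p = 0.000294) and cpt-6 was lower (-1.72, SE 0.16, adjusted p = 7.89e-05), and W01A11.7 was higher (2.20, SE 0.19, adjusted p = 5.87e-05). Of the flanks of gpr-2, slc-17.2 was higher with mec-3(unk206) by 0.72 (SE 0.10, adjusted p = 0.000236). Of those of haf-6, the overlapping gene Y48G8AL.7 was higher by 1.12 (SE 0.18, adjusted p = 0.000445). Of those of F42G10.1, F19C6.4 was higher with mec-7(u278) by 1.51 (SE 0.35, adjusted p = 0.0128) and with mec-3(unk206) by 2 (SE 0.35, adjusted p = 0.000763). Of those of F56A4.3, pud-1.1 was higher with mec-7(u278) by 3.20 (SE 0.66, adjusted p = 0.00965) and mct-2, of the monocarboxylate transporter family, by 3.86 (SE 0.77, adjusted p = 0.00909), each with an adjusted p of 0.136 when only the strains of the contrast were fitted. pud-1.1 had 276 and 85 counts in mec-7(u278) mbl-1(-) and 68 and 93 counts with mec-7(u278) alone. It had 12 and 14 in mec-3(u184) and 2 to 64 in the other strains, so it was not on in the third strain of F56A4.3. A further flank, gst-10, had 4360 and 4333 counts in mec-3(u184), against 2270 and 1737 in mec-3(syb8382). Counts were 1489 and 5042 in mec-7(u278) mbl-1(-) but 7551 and 9196 with mec-7(u278) alone. The remaining strains had 1677 to 3524, so the libraries overlapped. Against mec-3(unk206), gst-10 in mec-3(u184) differed by 1.5 (SE 0.47, adjusted p = 0.514, edgeR). With only the strains of the contrast the adjusted p was 3.4e-05.

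The families of the annotated genes were looked at for further switches. None of the 16 other asp genes, 7 other haf genes, 268 other nhr genes or 11 other genes of the spindle force machinery was switched. Of all genes that reached 1 CPM only 0.146% were, so the absence of switches does not set these families apart. Of the 11 asp genes with enough counts to test, 9 passed with mec-3(unk206) and 8 with mec-7(u278), all lower, with medians of -1.68 and -1.34 on the log2 scale, beside -0.02 and 0.02 over all genes tested. Over all genes 71.9% passed with mec-3(unk206) and 43.2% with mec-7(u278). The intestinal marker sum was 750 to 1411 CPM in the 4 libraries with mec-3(unk206) and 659 to 2467 CPM in the 4 with mec-7(u278), against 2389 to 3286 CPM in mbl-1(-) and WT, and its part in the lower counts of the asp and haf genes was not tested. With mec-3(unk206) the log2 fold change was -3.33 for asp-13 (SE 0.28, adjusted p = 5.47e-05), -1.96 for asp-2 (SE 0.28, adjusted p = 0.000272), -1.85 for asp-14 (SE 0.40, adjusted p = 0.00217) and -1.79 for asp-8 (SE 0.50, adjusted p = 0.00871). For asp-12, which was picked from these counts and so not tested, it was -5.29 in the same contrast. For mbl-1(-) 0 of the 11 passed in edgeR (0.386% of all genes), with 8 at an unadjusted p below 0.05 and 3 in DESeq2. Over all genes 1681 of the 16074 tested passed in DESeq2, and the share at an unadjusted p below 0.05 was not counted.

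Of the 6 haf genes tested, 4 were lower and 0 higher with mec-3(unk206), and likewise with mec-7(u278) (71.9% and 43.2% of all genes passed), whereas haf-6 was higher in mec-7(u278). haf-9 and haf-4, whose products form a transporter of intestinal granules, had log2 fold changes of -2.66 (SE 0.32, adjusted p = 0.00015) and -2.55 (SE 0.43, adjusted p = 0.000612) with mec-3(unk206), haf-7 of -2.40 (SE 0.20, adjusted p = 5.78e-05) and haf-1 of -0.67 (SE 0.20, adjusted p = 0.012). Of the 190 nhr genes tested, 146 were lower and 3 higher with mec-3(unk206), 86 were lower and 2 higher with mec-7(u278), beside 71.9% and 43.2% of all genes called, and 1 was lower with mbl-1(-), nhr-17 (-0.84, SE 0.14, adjusted p = 0.0375). With mec-3(unk206) the log2 fold change was -4.57 for nhr-74 (SE 0.43, adjusted p = 7.89e-05) and -4.06 for nhr-73 (SE 0.86, adjusted p = 0.002). nhr-245 had 0 counts in the 4 libraries with mec-3(unk206), against 19 and 11 counts in mbl-1(-) and 21 and 35 in WT, and 0 to 4 counts in the rest. nhr-265 likewise had 0 counts in these 4 libraries, against 9 and 26 in mbl-1(-) and 8 and 15 in WT. Of the 11 spindle force genes, 8 passed with mec-3(unk206), 4 in each direction, beside 71.9% of all genes, among them let-99 (2.31, SE 0.61, adjusted p = 0.00666), gpa-16 (1.39, SE 0.22, adjusted p = 0.000458), rgs-7 (-1.25, SE 0.31, adjusted p = 0.00457) and dhc-1 (-0.80, SE 0.20, adjusted p = 0.0054). With only the strains of the contrast, 0 genes of these families passed in edgeR with mec-7(u278) or mbl-1(-).

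Over the 8 strain means of log2(CPM + 0.5) the 10 genes had little in common. The highest correlations were between nhr-269 and T26E4.10, which share a single on strain (r = 1.0), between F56A4.3 and W01A11.1 (r = 0.76) and between F56A4.3 and haf-6 (r = 0.68), and the lowest between asp-12 and F42G10.1 (r = -0.77). F56A4.3, W01A11.1 and haf-6 shared their high strains in part: mec-7(u278) was high for all 3, mec-3(u184) for F56A4.3 and haf-6, and mec-7(u278) mbl-1(-) for F56A4.3 and W01A11.1.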

How the data were processed

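Total RNA of whole L4 worms was sequenced as paired reads. The authors aligned them with STAR (version 2.7.10 per the submitters' processing notes, build WBcel235) and deposited the raw counts per gene that STAR writes, unstranded and by strand, for 16 libraries. The rows that name no gene were left out: unmapped (1.09% to 2.86% of reads), multimapping (2.47% to 4.245%), outside genes (0.23% to 0.505%) and ambiguous (1.52% to 1.91%). The unstranded counts were used, scaled to CPM with TMM. Members and lists were chosen with earlier results of these data known, and the marker relations, strand columns, flank differences and bounds were described after values were seen.

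Genes were split at the largest gap in log2(CPM + 0.1), as given in the report. Tests were edgeR 4.0.16 quasi-likelihood tests (R 4.3.3, TMM, filterByExpr, Benjamini-Hochberg, threshold 0.05) in one fit of 16 libraries with strain as factor. On simulated data with 200 of 16074 genes changed by 2 log2 units, the mbl-1(-) contrast recovered 94.5% with 10 false calls, and the mec-3(u184) contrast 54.5% with 7. All other genes had the same mean in every simulated strain. The simulation thus held no culture differences between strains, and it does not give the recovery in these data. Alternatives were DESeq2 1.42.0, RLE size factors, no filter, strand counts, other gap limits, a fit of the strains of each contrast, a replicate block and each library left out. Named were the 10 genes, a part of the flanking genes, genes sharing exons, and at most 4 called genes per family. Not every flanking gene called in a contrast is named. The 2 genes most like each were found by Pearson correlation over the strain means of log2(CPM + 0.5) among 4636 genes, and 1 or both are named. Further genes with the same split were added after their values were seen. A floor of 3 counts per library set the bounds against 0, and such bounds cover counting error only; each was also computed with 1 library of the strain left out, an alternative chosen after seeing the data. Python 3.11.15, pandas 2.3.3 and matplotlib 3.10.9 made tables and figures.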

Additional observations from a re-analysis of the deposited data

Results flagged for a closer look

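For 4 of the 10 genes the same change of allele went opposite ways in different backgrounds, in both libraries of each strain, on the scale of log2(CPM + 0.1). None of these differences was tested. The genes were chosen because they differed between strains, and the share of all genes with such opposite signs was not counted. D1014.6 was higher in mbl-1(-); mec-3(unk206) than in mec-3(unk206) by 5.36 and differed by -1.89 in mec-7(u278) mbl-1(-) relative to mec-7(u278), a difference of 7.25, and the second value rests on libraries at 0.371 and 22.8 CPM. asp-12 differed by 0.622 in mbl-1(-) against WT and by 0.425 in mec-7(u278) mbl-1(-) relative to mec-7(u278), but by -2.26 in mbl-1(-); mec-3(unk206) relative to mec-3(unk206), which gives differences of 2.88 and 2.68. gpr-2 differed by 2.96 in mbl-1(-) against WT and by 0.247 in mec-7(u278) mbl-1(-) relative to mec-7(u278). In mbl-1(-); mec-3(unk206) relative to mec-3(unk206) it differed by -0.148, which gives differences of 3.11 and 0.394. The value of -0.148 is small and rests on 25.6 and 26.6 CPM in the double mutant, against 30.6 and 27.2 CPM. haf-6 was higher in mec-7(u278) than in WT by 2.40 and differed by -0.492 in mec-7(u278) mbl-1(-) against mbl-1(-), a difference of 2.89.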

How the results depend on the processing

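Over 22 settings of the gap, the strains on each side were the same in all 22 for 9 of the 10 genes and in 20 for D1014.6. F56A4.3, W01A11.1, nhr-269 and asp-12 were switched in all 22, T28D9.4, gpr-2 and F42G10.1 in 21, T26E4.10 in 2, haf-6 in 1 and D1014.6 in 0. The count of switched genes over the genome (21) was 122 at 2-fold, 13 at 8-fold and 44 with strand counts, and 21 to 861 with 1 library left out, highest without mbl-1(-) replicate 1, while 143 were switched without mec-7(u278) replicate 2. Genes called for mbl-1(-) (62) were 205 with RLE, 1681 in DESeq2, 34 with no filter, 2 with only the strains of the contrast and 5 to 2962 with 1 library left out, highest without mec-7(u278) mbl-1(-) replicate 2. Those for mec-7(u278) (6939) were 2 with only the strains of the contrast and 1757 to 8693 with 1 library left out, lowest without mec-7(u278) replicate 1. Those for mec-3(u184) (17) were 171 in DESeq2, 4086 with only the strains of the contrast and 0 to 77 with 1 library left out. Those for mec-3(syb8382) (5) were 0 with RLE, 261 in DESeq2, 1 with no filter, 2053 with only the strains of the contrast and 0 to 14 with 1 library left out. The cause of these shifts was not tested. With a replicate block the calls for mbl-1(-) were 12 and those for mec-3(syb8382) 0. Over 28 pairs of strains the deviations of same-numbered libraries correlated at -0.486 to 0.635, below 0.1 in 22. Whether the same-numbered libraries of some strains were prepared together was not tested.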
